A study of Mus musculus with 10 samples.

Results

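Receptors for serotonin, dopamine, noradrenaline, histamine and acetylcholine were examined as one group of 49 genes out of the 23589 genes of a single-nucleus count table from mouse brain. A gene belonged to the group if its symbol began with Htr, Drd, Adrb or Hrh and a digit, or with Adra1, Adra2, Chrm, Chrna or Chrnb, so that no measured value entered the choice. All 49 were described by the number of unique molecular identifiers (UMIs, the tags that mark single captured RNA molecules), and those with at least 50 UMIs over all labelled libraries (28 genes) are the ones considered by name.

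The nuclei came from archived frozen brains of C57BL/6 mice and were profiled by DroNc-seq, a droplet method that pairs each nucleus with a barcoded bead. There were 10 libraries, 5 labelled hippocampus and 5 labelled cortex. The labels' protocols give the cortical piece as prefrontal. The mice carried no allele, transgene or treatment that the labels name, and no age is stated in the sources used here. The libraries carry the title numbers 0 to 3, number 0 was run as libraries a and b in each region, and the libraries of a number and region were summed to 4 units per region. The series' design names 4 brains, but the labels do not tie a number to a mouse, so p-values rest on how far the units of a region vary, and that variation may be technical.

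Monoamine and muscarinic receptors are G protein-coupled receptors. The Gq-coupled ones (Htr2, Adra1, Hrh1, Chrm1) raise calcium through phospholipase C, the Gs-coupled ones (Htr4, Drd1, Adrb) raise cyclic AMP, and the Gi-coupled ones (Htr1, Adra2, Hrh3, Chrm2, Chrm4) lower it. Htr3 and the nicotinic receptors Chrna and Chrnb are ion channels that open when the transmitter binds. In forebrain the transmitters arrive mainly on axons from brainstem, hypothalamus and basal forebrain, so hippocampal and cortical neurons hold the receptors and seldom the enzymes that make the ligands.

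Depth and the makeup of the libraries bear on every value below. The 11624 nuclei (5658 hippocampal, 5966 cortical) gave 1443244 to 4407856 UMIs per unit. The units of number 0 stood apart, with a median of 2505 UMIs per nucleus in cortex against 1106.5 to 1306 in the others, and 792.5 in hippocampus against 1034 to 1172. Among 45 pairs of libraries, 7 shared a barcode, 3 at most. Clusters of nuclei were named from marker genes, with the 49 receptor genes left out of the clustering. Of 2267 hippocampal excitatory neuron-like nuclei, 1189 were dentate granule-like and 498 CA pyramidal-like, while 314 fell in layer 5 and 6-like clusters, 195 in layer 2-4-like clusters and 71 in cluster 2, which were mainly made of cortical nuclei. These cortical-type nuclei were uneven over the hippocampal units. Unit 0 held 148 of the 314, 159 of the 195 and 57 of the 71. Its excitatory neuron-like nuclei came to 744, against 469, 488 and 566 in units 1 to 3. Of the cortical nuclei, 6 were dentate granule-like and 12 CA pyramidal-like. Hippocampal libraries also held nearly all of unnamed cluster 13 (344 of 359 nuclei, led by Tfap2b) and all of unnamed cluster 21 (181 nuclei, led by Prkcd) and of a choroid plexus-like cluster (26 nuclei, all of unit 0). In all, 1764 hippocampal nuclei (43.3% of unit 0) and 721 cortical nuclei stayed unnamed and entered no class comparison. Excitatory neuron-like nuclei made up a mean of 42.6% of hippocampal and 65.2% of cortical units. Inhibitory ones made up 4.23% and 10.2%, and astrocyte-like ones 11.0% and 2.60%. In sums over nuclei, fewer cells of a type and less RNA per cell cannot be told apart.

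Transcripts of these receptors were sparse and uneven across families. The 14 serotonin receptor genes gave 2145 UMIs in all, the 5 muscarinic genes 2137, the 4 histamine genes 1368, the 13 nicotinic genes 1021, the 6 alpha-adrenergic genes 935, the 3 beta-adrenergic genes 910 and the 4 dopamine genes 252. In every family the 2 genes with most UMIs held most of the count. Chrm1 gave 1387 of the muscarinic UMIs and Hrh3 1179 of the histamine UMIs. The 21 genes under 50 UMIs include 10 of the 13 nicotinic genes. Drd2 (3 UMIs) and Drd4 (5 UMIs), the Gi-coupled dopamine receptors, were close to the limit of detection, since 3 counts is the level that a count of 0 allows. Genes for transmitter synthesis and carriage were as sparse. Slc18a2, the vesicular monoamine transporter, gave 81 UMIs, and Th, Chat, Slc6a4, Tph2 and Slc6a3 between 1 and 32.

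Between the regions, hippocampus held more Htr4, Htr2c and Chrnb2, and cortex held more of 8 receptors, among them Hrh3, Htr2a, Adrb1 and Htr1f. Chrm2 was also called higher in hippocampus, but in 7 of 17 alternatives only, with a log2 fold change that ranged from -0.07 to 0.88. Htr4 showed the largest difference, with 123 hippocampal UMIs against 7 cortical ones. After the filter on low counts, 20 of the 49 genes could be tested in sums over all nuclei. Of these 12 passed an adjusted p of 0.05, 4 higher and 8 lower in hippocampus, where 17.7% of all 12855 genes tested passed (9.19% higher, 8.53% lower). Their median log2 fold change was -0.608, against -0.008 over all genes tested. The filter keeps a gene for its level in either group, here and in each comparison below, so such counts and medians describe the genes it kept and not the group of 49.

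**Figure D1:**
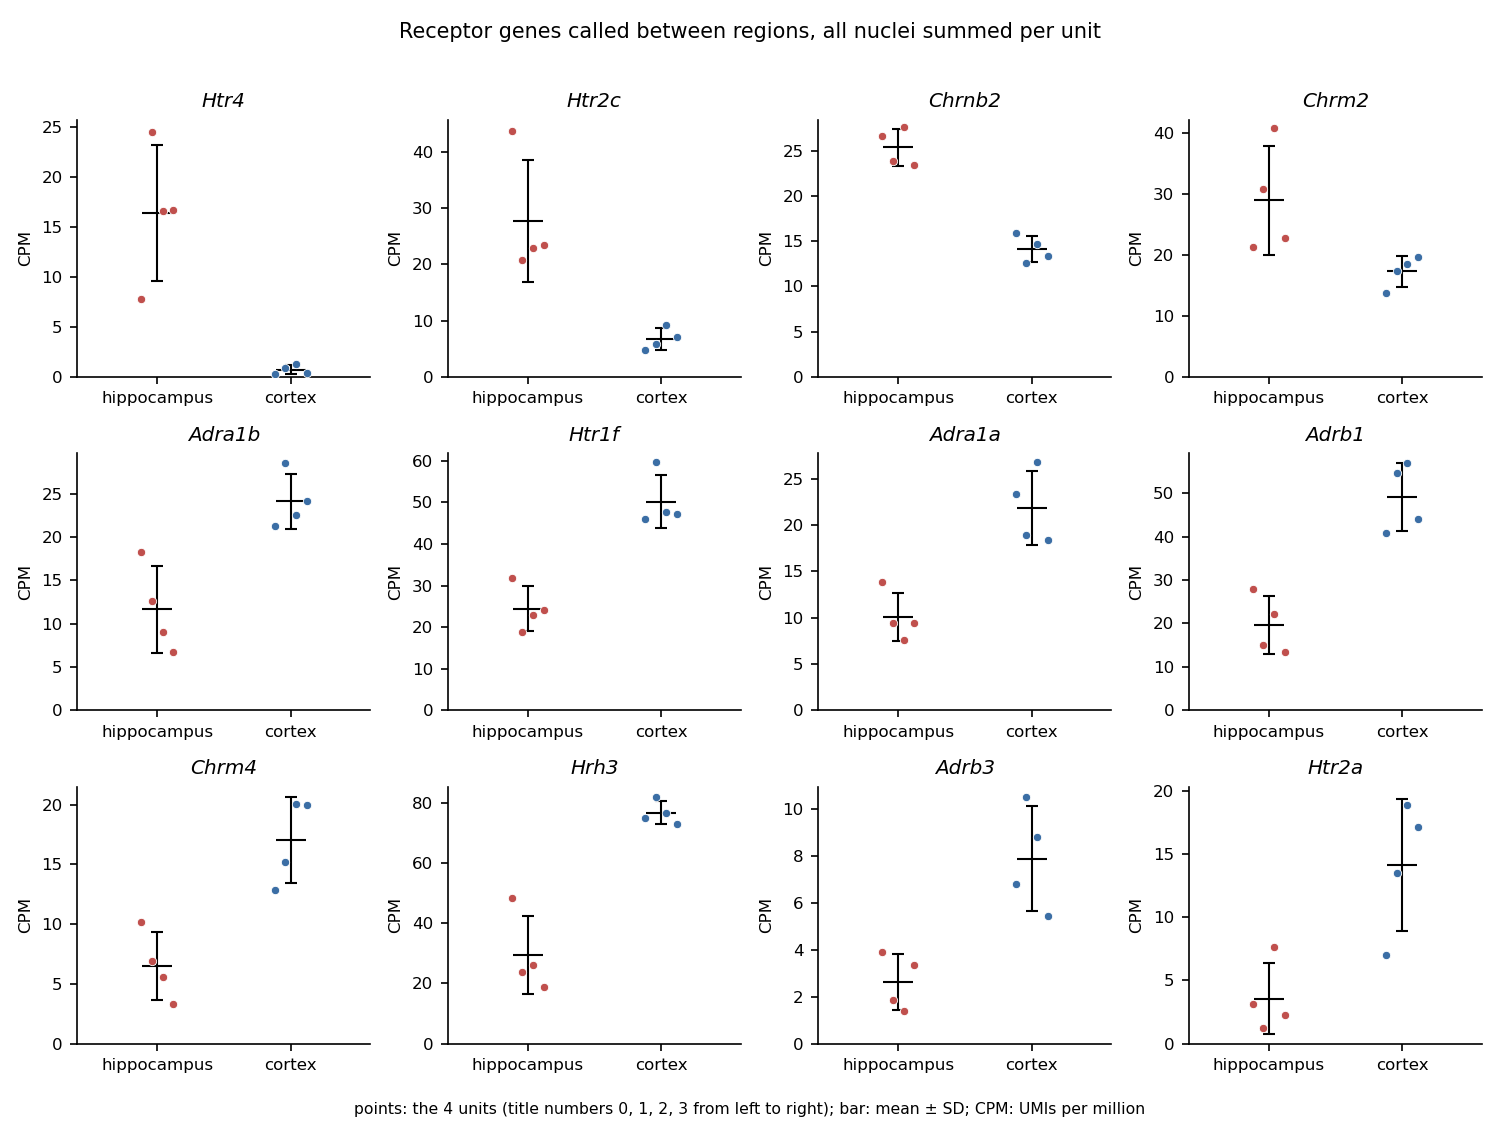
Level of each of the 12 receptor genes called between the regions, in CPM (y axis from 0), for the 4 hippocampal and 4 cortical units, with the mean and SD as bars. Htr4, Htr2c, Chrnb2 and Chrm2 sit higher in hippocampus and the other 8 in cortex, and only for Htr2a do the units of the 2 regions overlap.

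Among serotonin receptors, Htr4, a Gs-coupled receptor, read 7.82, 24.5, 16.6 and 16.7 CPM (counts of the gene per 1000000 UMIs of the unit) in hippocampal units 0 to 3 and 0.227, 0.842, 1.26 and 0.417 CPM in cortical units 0 to 3. Every hippocampal unit was above every cortical unit, and the log2 fold change was 4.56 ± 0.52 (SE, n = 4 and 4, adjusted p = 0.000102). Htr2c, the Gq-coupled receptor known for its abundance in choroid plexus, read 43.8, 20.7, 22.9 and 23.4 CPM in hippocampus and 4.76, 5.89, 9.23 and 7.10 CPM in cortex. Its log2 fold change was 2.11 ± 0.29 (adjusted p = 0.000307), with hippocampal unit 0 far above the other 3. The choroid plexus-like nuclei of that unit held 115 of the 276 hippocampal Htr2c UMIs, and cluster 13 held 61. Without clusters 13, 21 and 24 (the choroid plexus-like one), a choice made after the data were seen, the log2 fold change was 0.83 (adjusted p = 0.0492, 9.45e-09 to 0.0492 over 17 alternatives).

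Cortex held more of 2 other serotonin receptors. Htr1f, a Gi-coupled receptor, read 31.8, 18.8, 22.9 and 24 CPM in hippocampus and 46.1, 59.8, 47.8 and 47.2 CPM in cortex. The regions did not overlap, and the log2 fold change was -1.01 ± 0.16 (adjusted p = 0.00105). Htr2a, the Gq-coupled receptor that psychedelic drugs activate, read 3.13, 1.26, 7.62 and 2.23 CPM against 7.03, 13.5, 18.9 and 17.1 CPM. Its log2 fold change was -2.02 ± 0.44 (adjusted p = 0.00672), although hippocampal unit 2 lay above cortical unit 0. The other tested serotonin receptors did not pass. Htr1a, the Gi-coupled autoreceptor of serotonin neurons, averaged 7.61 ± 2.26 and 6.03 ± 2.12 CPM (SD, n = 4 each) in hippocampus and cortex, Htr1b 7.61 ± 3.80 and 9.92 ± 2.72 CPM, and Htr5a 4.53 ± 2.12 and 7.70 ± 1.40 CPM.

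Histamine receptor Hrh3, a Gi-coupled receptor best known as a presynaptic brake on transmitter release, read 48.3, 23.9, 26.3 and 18.9 CPM in hippocampus and 75.1, 82.1, 76.8 and 73.0 CPM in cortex. The cortical units lay within 10 CPM of each other, hippocampal unit 0 was the highest of its region, and the log2 fold change was -1.32 ± 0.22 (adjusted p = 0.00105). Hrh1, the Gq-coupled receptor blocked by sedating antihistamines, stood at a mean of 4.09 ± 2.22 CPM in the hippocampal units and 9.04 ± 1.71 CPM in the cortical ones. Its regions did not overlap, but its log2 fold change of -1.02 ± 0.35 missed the threshold (adjusted p = 0.0589). It passed, at -1.40 and -1.15, when unit 0 of hippocampus or unit 0 of cortex was left out.

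All 4 adrenergic receptors that differed were higher in cortex. Adrb1, the main Gs-coupled beta receptor of forebrain, read 27.9, 15.1, 22.2 and 13.4 CPM in hippocampus and 40.8, 54.7, 57 and 44.2 CPM in cortex, with no overlap and a log2 fold change of -1.28 ± 0.21 (adjusted p = 0.00118). Adra1a, a Gq-coupled alpha receptor, read 13.8, 9.42, 7.62 and 9.47 CPM against 23.4, 18.9, 26.8 and 18.4 CPM, again without overlap (log2 fold change -1.06 ± 0.22, adjusted p = 0.00413). Adra1b, its close relative, read 18.3, 12.6, 9.01 and 6.69 CPM against 21.3, 28.6, 22.6 and 24.2 CPM. Its hippocampal unit 0 came near the lowest cortical unit, and the log2 fold change was -0.97 ± 0.25 (adjusted p = 0.0165; -0.88 without cortical unit 1, adjusted p = 0.0515, 5.19e-05 to 0.0515 over 17 alternatives). Adrb3, the beta receptor best known from fat tissue, was low in both regions, at 2.63 ± 1.19 and 7.89 ± 2.24 CPM (log2 fold change -1.43 ± 0.35, adjusted p = 0.0124). Adra2a, the Gi-coupled target of clonidine, averaged 6.12 ± 2.11 and 4.01 ± 0.90 CPM and did not pass.

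The acetylcholine receptors divided between the regions. Chrnb2, the beta subunit of the most common brain nicotinic receptor, read 26.6, 23.9, 27.7 and 23.4 CPM in hippocampus and 15.9, 12.6, 14.7 and 13.4 CPM in cortex. Its units were apart and its log2 fold change was 0.82 ± 0.16 (adjusted p = 0.00308). Chrnb2 overlaps Adar on the opposite strand, and since the sources used here do not say whether strand was used in counting, its counts may hold reads of Adar. Chrna4, its usual partner subunit, averaged 19.5 ± 4.37 and 20.5 ± 5.22 CPM, a log2 difference of -0.05 ± 0.22. Chrm4, a Gi-coupled muscarinic receptor, read 10.2, 6.90, 5.54 and 3.34 CPM in hippocampus and 12.9, 15.2, 20.1 and 20 CPM in cortex (log2 fold change -1.28 ± 0.29, adjusted p = 0.00804), all cortical units above all hippocampal ones. Chrm1, the Gq-coupled receptor of forebrain pyramidal cells, averaged 68.0 ± 13.2 and 69.9 ± 2.94 CPM, a log2 difference of -0.05 ± 0.13.

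Chrm2, the Gi-coupled muscarinic receptor of many axon terminals, read 21.4, 30.8, 40.9 and 22.8 CPM in hippocampus and 13.8, 17.3, 18.5 and 19.6 CPM in cortex (log2 fold change 0.71 ± 0.23, adjusted p = 0.0451). Cluster 13 held 88 of the 231 hippocampal Chrm2 UMIs. Without cluster 13 the log2 fold change was 0.02, and without clusters 13, 21 and 24 it was -0.07 (adjusted p over 17 alternatives 0.00603 to 0.972). Leaving out any 1 of 7 units, that is all but hippocampal unit 0, also ended the call. Chrnb2 lost its call without the 3 clusters (log2 fold change 0.51; adjusted p over 17 alternatives 0.00152 to 0.0658).

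Dopamine receptors were low in both regions. Drd1a (the table's symbol for Drd1), the Gs-coupled receptor, read 4.17, 6.90, 6.24 and 11.7 CPM in hippocampus and 5.67, 11.8, 11.7 and 11.7 CPM in cortex. The regions overlapped and the difference did not pass (log2 fold change -0.53 ± 0.36, adjusted p = 0.358). Drd5, the other Gs-coupled dopamine receptor, gave 57 UMIs in hippocampus and 21 in cortex, or 4.69, 9.42, 11.8 and 3.90 CPM against 0.454, 2.10, 3.36 and 2.50 CPM. Its pooled hippocampal level was 3.62 times the cortical one (95% exact interval 2.16 to 6.29, counting error only), but the gene stayed under the filter on low counts. Leaving out hippocampal unit 3, the lowest of its region, or cortical unit 2 or 3, the highest of theirs, let it pass the filter. The log2 fold change was then 1.98 to 2.20 and passed. Each of these omissions widens the difference by itself, so these passes add no support. The following genes, also under the filter over all nuclei, had 57 to 77 UMIs each. Htr7 gave 48 and 29 UMIs in hippocampus and cortex, Htr3a 22 and 55, Htr6 19 and 38, Adra2c 30 and 38, Chrm3 21 and 46, and Chrna7 30 and 31.

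Within excitatory neuron-like nuclei, 11 of 18 tested receptors differed between the regions, 3 higher and 8 lower in hippocampus, where 16.3% of all 10904 genes tested passed (8.90% higher, 7.39% lower). The median log2 fold change was -0.883 over the 18 and -0.002 over all genes tested. Different clusters hold most of this class in the 2 regions, dentate granule-like and CA pyramidal-like in hippocampus and layer-like in cortex, so the comparison sets different kinds of excitatory neuron side by side. Its Htr4 level was 9.84, 34.1, 25.8 and 25.8 CPM in hippocampus and 0.393, 0.697, 0 and 0.711 CPM in cortex, from 83 and 3 UMIs, a ratio of 48.1 (95% exact interval 15.9 to 238.2). Hrh3 read 36.8, 17.0, 10.9 and 8.96 CPM against 75.9, 87.2, 86.8 and 75.4 CPM (log2 fold change -1.96 ± 0.29, adjusted p = 0.000377), with unit 0 the highest in hippocampus and no overlap.

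**Figure D2:**
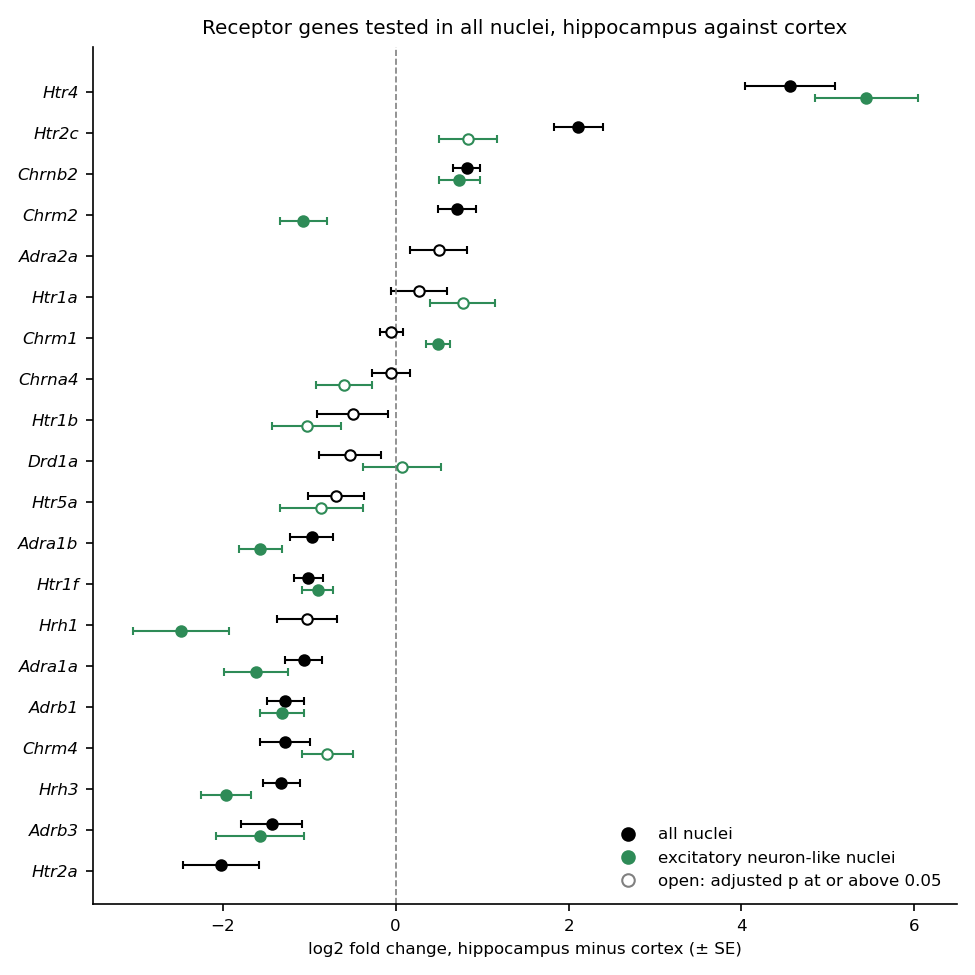
Log2 fold change (hippocampus minus cortex, x axis, ± SE) of the 20 receptor genes tested in all nuclei (black) and, where tested, in excitatory neuron-like nuclei (green). Filled points passed an adjusted p of 0.05. Htr4 lies farthest to the right in both, Chrm2 lies right of 0 in all nuclei and left of 0 in excitatory nuclei, and the green points of Hrh1, Hrh3 and Adra1b lie left of the black ones.

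The receptors lower in hippocampal excitatory nuclei came from the histamine, adrenergic and muscarinic families and Htr1f. Adra1b read 9.19, 6.55, 8.16 and 5.6 CPM against 21.6, 25.8, 21 and 24.2 CPM (log2 fold change -1.57 ± 0.25, adjusted p = 0.000661). Adrb1 read 32.8, 15.7, 21.8 and 13.4 CPM against 41.3, 65.5, 69.3 and 50.5 CPM (-1.31 ± 0.26, adjusted p = 0.00307). Both sets of units were apart. Hrh1 rested on 6 hippocampal and 61 cortical UMIs (-2.49 ± 0.56, adjusted p = 0.00733), Adra1a on 16 and 87 (-1.62 ± 0.37, adjusted p = 0.00894) and Adrb3 on 13 and 67 (-1.57 ± 0.51, adjusted p = 0.0479). Htr1f had a mean of 30.6 ± 5.72 CPM in hippocampal and 60.1 ± 9.70 CPM in cortical units (-0.90 ± 0.18, adjusted p = 0.00346), the same direction as in all nuclei. Chrm2 read 10.5, 6.55, 9.52 and 5.6 CPM in hippocampal excitatory nuclei and 15.7, 17.4, 17.5 and 21.3 CPM in cortical ones, with no overlap. Its log2 fold change of -1.07 ± 0.27 (adjusted p = 0.0148) had the opposite sign to that over all nuclei.

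Chrm1 was higher in hippocampal excitatory nuclei, at 95.8, 115.3, 99.3 and 129.9 CPM against 80.6, 75.3, 79.8 and 83.2 CPM in cortex. The units did not overlap and the log2 fold change was 0.49 ± 0.14 (adjusted p = 0.0268). Chrnb2 averaged 23.7 ± 4.29 and 13.9 ± 3.06 CPM (0.74 ± 0.24, adjusted p = 0.0477). The calls of Chrm1, Chrnb2 and Adrb3 were kept least often, and without cortical unit 1 the number of receptors called fell from 11 to 7. Chrm1 kept its call in 11 of 17 alternatives, Chrnb2 in 7 of 17 and Adrb3 in 7 of the 12 that tested it. Single units that ended a call were hippocampal units 1 and 3 and cortical units 1, 2 and 3 for Chrm1, the same units with hippocampal unit 2 for Chrnb2, hippocampal units 1, 2 and 3 and cortical unit 3 for Adrb3, and hippocampal unit 3 for Chrm2. Chrm4 (-0.79 ± 0.30) passed only without hippocampal unit 0 among single units left out (-1.25), and Htr1b (-1.03 ± 0.40) only without cortical unit 0 (-1.28). Htr2a, from 14 hippocampal and 94 cortical UMIs, was under the filter here, and its log2 fold change of -2.04 without the filter passed.

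The cortical-type nuclei in the hippocampal libraries carried much of what remained there of several receptors. Layer 5 and 6-like nuclei gave 52 of the 85 hippocampal excitatory Hrh3 UMIs, 70 of the 126 Htr1f UMIs, 30 of the 51 Chrna4 UMIs and 21 of the 30 Adra1b UMIs. When hippocampal excitatory nuclei were limited to the dentate granule-like and CA pyramidal-like clusters, a choice made after the data were seen, the log2 fold change was -4.03 for Hrh3, -4.24 for Adra1b, -2.93 for Chrm2, -2.70 for Adra1a, -2.04 for Adrb1 and -1.79 for Htr1f. These were all larger than with the cortical-type nuclei included. Chrna4 (-1.93) and Chrm4 (-1.44) then passed, and Chrnb2 (0.65) did not. Adjusted p over all alternatives ranged from 1.96e-19 to 0.00282 for Hrh3 and from 1.61e-06 to 0.00382 for Adra1b.

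In inhibitory neuron-like nuclei only Chrm1, Adra1a and Hrh3 passed the filter, and none passed the test between regions with edgeR (0 at an unadjusted p under 0.05, 0 with DESeq2), where 0.351% of 5131 genes did. The hippocampal units held few such nuclei, 219 in all. Adra1a read 69.2, 70.8, 11.6 and 81.6 CPM in hippocampus and 81.9, 75.2, 79.6 and 52.3 CPM in cortex, a log2 difference of -0.23 ± 0.37. No receptor could be tested between regions in astrocyte-like nuclei, where 4.90% of genes passed.

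Setting inhibitory against excitatory nuclei within each region, with the unit as a block, Adra1a and Htr3a were higher and Chrm1 lower in inhibitory nuclei of both regions. In cortex 3 of 16 tested receptors passed (2 higher, 1 lower), where 17.6% of all genes did (8.69% higher, 8.91% lower). The median log2 fold change was 0.001 over the 16 and -0.001 over all genes tested. In hippocampus 6 of 12 passed (5 higher, 1 lower), where 14.2% of all genes did (6.11% higher, 8.11% lower), with medians of 1.200 and -0.018. Cortical Adra1a was 81.9, 75.2, 79.6 and 52.3 CPM in inhibitory nuclei and 12.6, 10.5, 14.7 and 13.5 CPM in excitatory nuclei, a log2 fold change of 2.45 ± 0.25 (adjusted p = 6.89e-14). The excitatory units were all below 15 CPM and the inhibitory units all above 50. In hippocampus its log2 fold change was 3.78 ± 0.61 (adjusted p = 9.63e-07), although inhibitory unit 2 was low at 11.6 CPM.

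**Figure D3:**
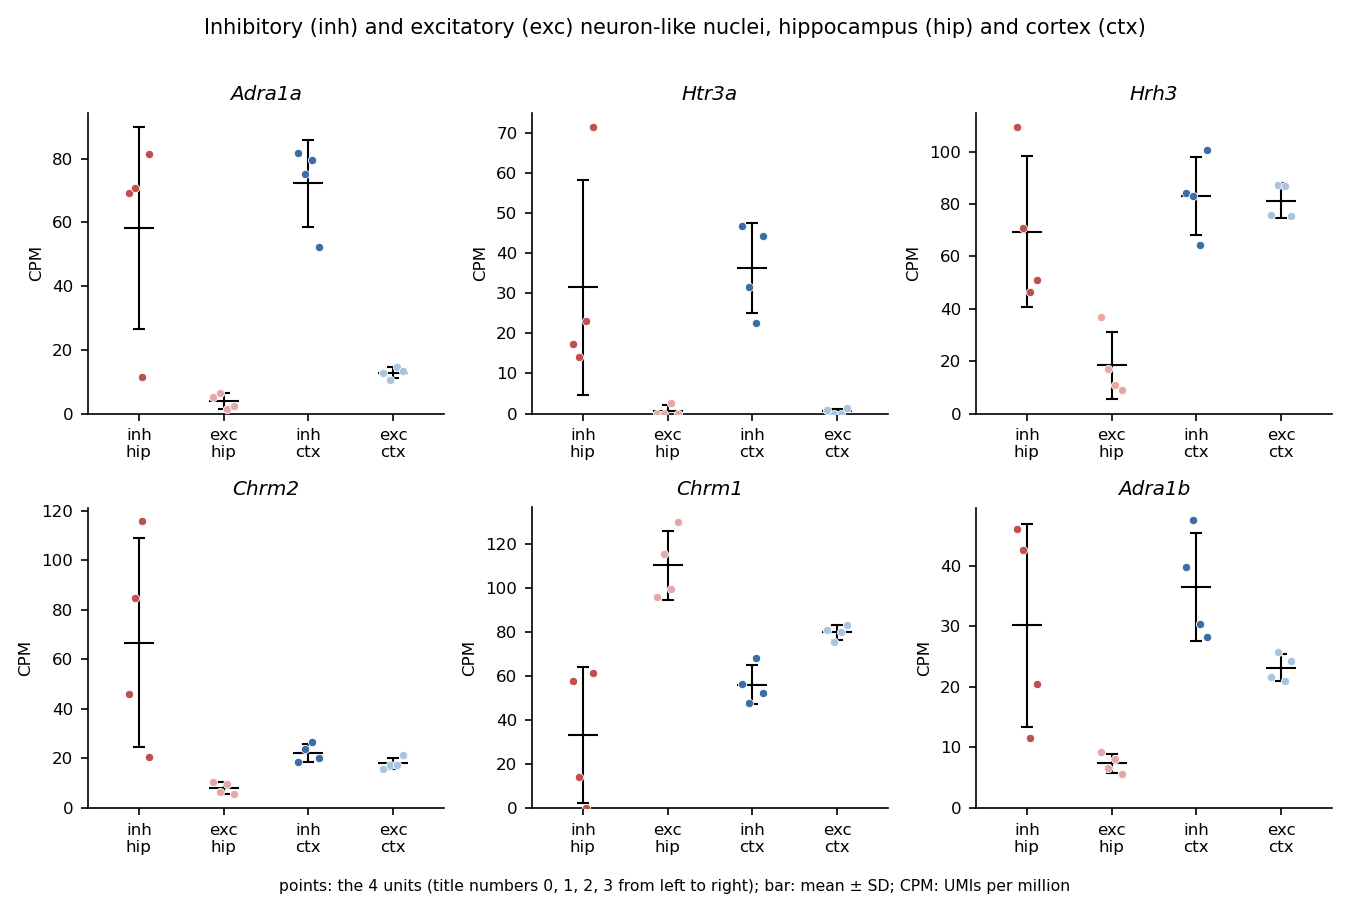
Level in CPM (y axis from 0) of 6 receptor genes in inhibitory and excitatory neuron-like nuclei of the 4 hippocampal and 4 cortical units, with mean and SD. Adra1a and Htr3a are higher in inhibitory nuclei of both regions, and Hrh3 and Chrm2 are apart between the classes in hippocampus but overlap in cortex.

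Htr3a, the subunit that the serotonin-gated ion channel needs, was nearly absent from excitatory nuclei. Cortical inhibitory nuclei read 46.8, 31.7, 22.7 and 44.3 CPM, from 45 UMIs, against 4 UMIs in all excitatory nuclei of cortex. The ratio of pooled levels was 64.3 (95% exact interval 23.4 to 246.0) and the adjusted p 1.41e-13. Hippocampal inhibitory nuclei gave 13 UMIs, 7 of them in unit 3, and excitatory nuclei 2, a ratio of 59.4 (13.4 to 542.0; adjusted p = 6.62e-05). Chrm1 averaged 56.0 ± 8.87 CPM in cortical inhibitory and 79.7 ± 3.30 CPM in cortical excitatory nuclei (-0.57 ± 0.19, adjusted p = 0.0221), a call kept in 6 of 12 alternatives. In hippocampus it averaged 33.3 ± 30.8 against 110.1 ± 15.7 CPM (-1.53 ± 0.35, adjusted p = 0.000675), with inhibitory units 1 and 2 at 1 and 0 UMIs. The difference between the regions did not pass for Chrm1 (-0.995 ± 0.411, adjusted p = 0.197).

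Hrh3 and Chrm2 differed between the classes in hippocampus and not in cortex, and the difference between regions was itself tested. Hippocampal inhibitory nuclei read 109.6, 70.8, 46.3 and 51.0 CPM of Hrh3 (1.81 ± 0.40 against excitatory nuclei, adjusted p = 0.000484), and cortical inhibitory nuclei 84.2, 83.1, 64.4 and 100.6 CPM (-0.02 ± 0.17). Hippocampal excitatory nuclei, at 18.4 ± 12.7 CPM, were below the other 3 sets of units, whose means were 69.4, 83.1 and 81.3 CPM. Chrm2 read 46.1, 84.9, 115.8 and 20.4 CPM in hippocampal inhibitory nuclei (2.75 ± 0.53, adjusted p = 3.89e-05), from 26 UMIs, and 18.7, 23.7, 26.5 and 20.1 CPM in cortical ones (0.25 ± 0.33). Sst and Pvalb class interneuron-like nuclei held 24 of the 26 hippocampal UMIs. The difference of differences was 1.74 ± 0.39 for Hrh3 (adjusted p = 0.000715) and 2.46 ± 0.57 for Chrm2 (adjusted p = 0.00116). These were 2 of 15 tested receptors, both positive, where 3.58% of all genes passed (1.12% positive, 2.47% negative), with medians of 0.109 and -0.072. Without number 2 the value for Chrm2 was 2.26 (adjusted p = 0.0591, 9.46e-08 to 0.0591 over 13 alternatives). With hippocampal excitatory nuclei limited to dentate and CA clusters, Hrh3 stood at 3.73 and Chrm2 at 4.45, and Adra1a (2.39), Adra1b (3.90) and Chrm1 (-1.25) also passed.

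Adra1b was also higher in hippocampal inhibitory nuclei (30.1 ± 16.8 against 7.38 ± 1.61 CPM, 1.95 ± 0.65, adjusted p = 0.0304), a call that 5 of the 9 alternatives that tested it kept and that ended without number 3. In cortex the units were apart, at 28.2 to 47.5 CPM against 21 to 25.8 CPM, but the difference did not pass (0.62 ± 0.27, adjusted p = 0.101). Htr1b, with 5 UMIs in cortical inhibitory nuclei, did not pass there (-1.52 ± 0.64, adjusted p = 0.0902) and passed without number 1 (-3.35). Htr2c did not pass in either region (1.35 ± 0.51 in cortex, adjusted p = 0.0559, and 1.52 ± 0.62 in hippocampus, adjusted p = 0.0931).

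Within the inhibitory class of cortex, Htr3a and Adra1b marked the Vip/Adarb2 class interneuron-like nuclei. These came to 207 nuclei against 398 of the Sst and Pvalb class. Htr3a read 117.2, 70.4, 58.4 and 117.7 CPM in the first and 0 CPM in every unit of the second, which puts it at least 22.2-fold higher with 3 counts as the floor over the group (adjusted p = 3.14e-07). Adra1b read 87.9, 87.9, 68.1 and 64.2 CPM against 7.79, 14.4, 6.21 and 6.45 CPM, from 38 and 6 UMIs (log2 fold change 3.07 ± 0.68, adjusted p = 0.000970). Neither gene's units overlapped between the classes. These were 2 of 5 tested receptors, both higher, where 4.96% of all genes passed (2.71% higher, 2.25% lower). The median was 0.400 over the 5 and 0.009 over all genes tested. Adra1a (85.3 ± 23.2 and 65.1 ± 25.1 CPM), Chrm1 and Hrh3 did not pass. Without title number 0, and without the block, the filter kept only 2 receptors, neither of which passed.

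In cortical excitatory nuclei, 6 of the receptors that the filter kept were higher in layer 5 and 6-like than in layer 2-4-like nuclei and none of those kept was lower. Adrb3, which the filter left out, was lower in the deep class when no filter was used (-1.58). These were 6 of 11 tested receptors, where 13.9% of all 9349 genes passed (7.23% higher, 6.72% lower). The median was 0.990 over the 11 and -0.002 over all genes tested. A gene could be kept through its level in 1 class alone, so neither the count nor the median speaks for the receptors that were left out. Htr1f read 88.1, 111.8, 81.3 and 86.1 CPM in layer 5 and 6-like nuclei and 17.3, 39.6, 17.2 and 18.7 CPM in layer 2-4-like ones. Its log2 fold change was 2.02 ± 0.19 (adjusted p = 9.24e-18), and the lowest deep unit was above 80 CPM while the highest upper unit was below 40. Chrna4 read 29.4, 39.4, 36.1 and 26.9 CPM against 4.31, 13.2, 6.88 and 14.9 CPM, also without overlap (1.86 ± 0.32, adjusted p = 8.46e-07). Its partner Chrnb2, at 14 ± 2.66 and 11.0 ± 3.56 CPM, was not among the genes that passed the filter.

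**Figure D4:**
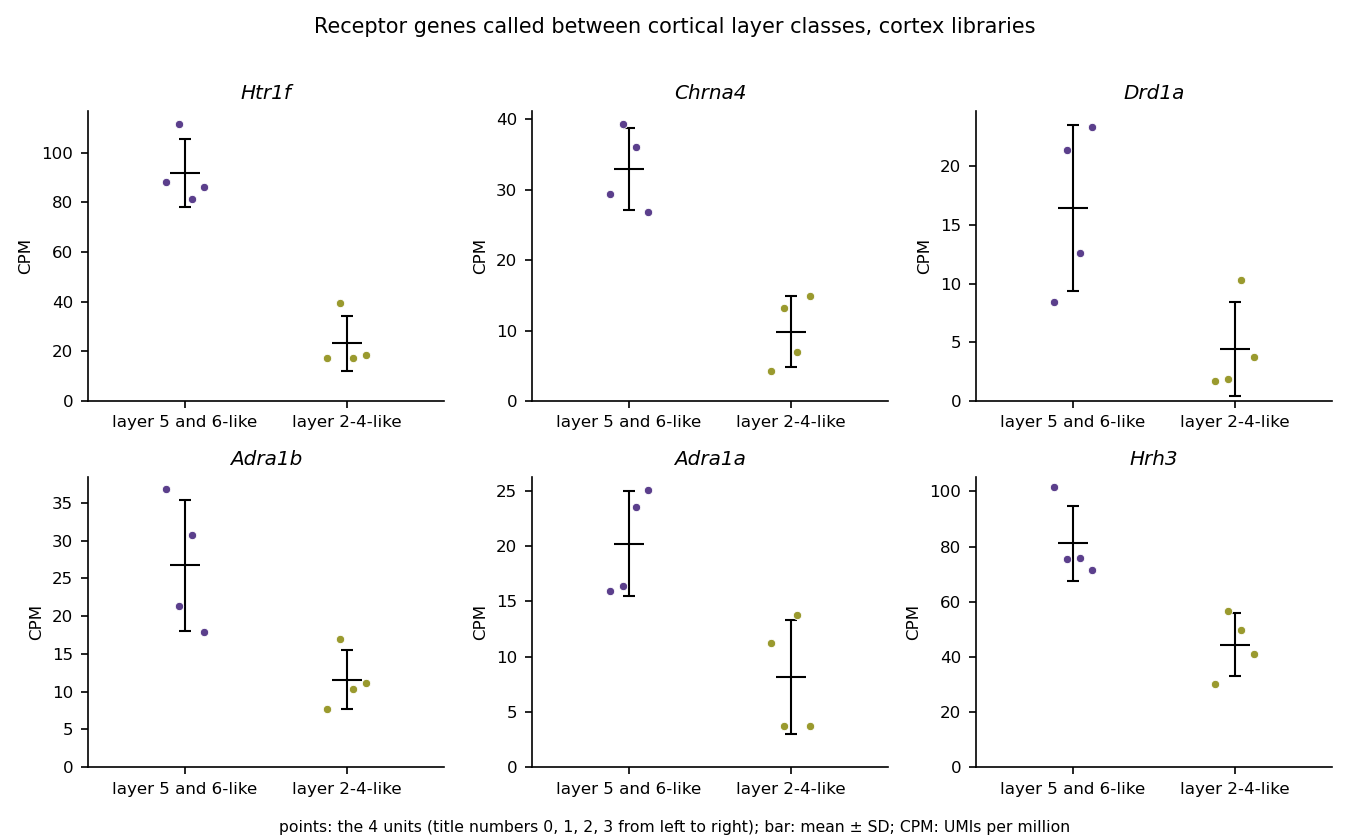
Level in CPM (y axis from 0) of the 6 receptor genes called between layer 5 and 6-like and layer 2-4-like nuclei of the 4 cortical units, with mean and SD. All units of the deep class lie above all units of the upper class except for Drd1a, where 1 upper unit reaches 10.3 CPM.

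The other 4 of these receptors showed smaller or less stable differences. Hrh3 read 101.5, 75.6, 75.9 and 71.7 CPM in deep and 30.2, 56.6, 49.9 and 41.1 CPM in upper nuclei (0.99 ± 0.17, adjusted p = 1.78e-06). Unit 0 had both the highest deep and the lowest upper level, and without it the log2 fold change was 0.57 and did not pass (adjusted p = 0.0619, 6.21e-09 to 0.0619 over 12 alternatives). Its deep nuclei were 224 layer 5-like and 124 layer 6-like, against 128, 122 and 105 layer 5-like and 275, 208 and 281 layer 6-like in units 1 to 3. Layer 5-like nuclei alone read 127.4, 96.2, 84.9 and 118.3 CPM of Hrh3. The part of this mix in the deep levels was not tested. Adra1b read 36.9, 21.4, 30.7 and 17.9 CPM against 7.76, 17.0, 10.3 and 11.2 CPM (1.37 ± 0.31, adjusted p = 0.000404), and without unit 0 it was 0.84 and did not pass (adjusted p 0.000107 to 0.225 over 12 alternatives). Drd1a read 8.39, 21.4, 12.6 and 23.3 CPM against 1.73, 1.89, 10.3 and 3.74 CPM (1.84 ± 0.49, adjusted p = 0.00272). Adra1a read 15.9, 16.4, 23.5 and 25.1 CPM against 11.2, 3.77, 13.8 and 3.74 CPM (1.11 ± 0.37, adjusted p = 0.0248), a call that ended without unit 1. DESeq2 called Htr1f, Chrna4 and Hrh3 and not Adra1b, Drd1a or Adra1a. Adrb1, Chrm1, Chrm2, Chrm4 and Htr1b did not pass, and Chrm1 lay at 81.6 ± 5.83 and 81.9 ± 3.09 CPM in the 2 classes.

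Layer 5-like and layer 6-like nuclei did not hold these receptors alike, as far as pooled levels show. Hrh3 stood at 114.3 CPM (192 UMIs) in layer 5-like and 46.3 CPM (57 UMIs) in layer 6-like nuclei of cortex. Drd1a went the other way, at 5.95 CPM (10 UMIs) and 26.8 CPM (33 UMIs). Htr1f was at 89.3 and 94.2 CPM and Chrm1 at 68.4 and 99.1 CPM. These layer 5 and layer 6 values were not tested. Cluster 2, an excitatory cluster given no layer, held 170.4 CPM of Hrh3 in cortex (183 UMIs), above every named layer class.

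The genes higher in deep layers had unlike promoters. The RefSeq promoter table of GRCm38.p6 matched 37 of the 49 receptor genes and 5 of these 6, and the entries were read over the 250 bases before the start, taking the most upstream of 2 starts for Adra1b and Drd1a. The stretches below, all on the minus strand and written 5′ to 3′, leave out bases that GENCODE vM21 places in an exon, and capitals mark the GC box GGGCGG or its reverse complement CCGCCC. They are shown because each of these genes was called higher in layer 5 and 6-like nuclei, a choice that itself fixes their shared direction.
Htr1f: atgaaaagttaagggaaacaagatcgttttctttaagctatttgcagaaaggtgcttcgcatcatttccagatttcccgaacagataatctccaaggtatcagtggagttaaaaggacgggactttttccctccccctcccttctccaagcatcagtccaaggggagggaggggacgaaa
Chrna4: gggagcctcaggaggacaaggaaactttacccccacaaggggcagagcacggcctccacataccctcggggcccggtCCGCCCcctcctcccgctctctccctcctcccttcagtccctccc
Hrh3: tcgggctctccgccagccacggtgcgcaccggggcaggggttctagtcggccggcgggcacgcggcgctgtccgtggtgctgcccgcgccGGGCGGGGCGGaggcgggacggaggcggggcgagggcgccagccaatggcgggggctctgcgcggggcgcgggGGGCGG
Adra1b: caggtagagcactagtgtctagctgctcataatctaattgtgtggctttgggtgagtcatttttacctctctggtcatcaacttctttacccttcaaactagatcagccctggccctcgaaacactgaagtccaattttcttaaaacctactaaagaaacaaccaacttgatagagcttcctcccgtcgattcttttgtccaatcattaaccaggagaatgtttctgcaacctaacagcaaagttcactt
Drd1a: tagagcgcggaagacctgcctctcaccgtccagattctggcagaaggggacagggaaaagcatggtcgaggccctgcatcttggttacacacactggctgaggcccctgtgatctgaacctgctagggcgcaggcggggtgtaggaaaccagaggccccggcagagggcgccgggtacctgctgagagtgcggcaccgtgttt

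These stretches lie at chr16:65105855-65106034 for Htr1f (180 bases), chr2:181039306-181039427 for Chrna4 (122 bases), chr2:180104489-180104657 for Hrh3 (169 bases), chr11:43901238-43901487 for Adra1b (250 bases) and chr13:54055706-54055908 for Drd1a (203 bases). In the full 250 bases Hrh3 was 80.8% G and C with 42 CpG sites and 4 GC boxes, and Chrna4 74.4% with 24 CpG sites and 3 GC boxes. Adra1b was 41.6% with 3 CpG sites, Htr1f 49.2% with 7 and Drd1a 64.0% with 15, and none of these 3 held a GC box. The median over 27025 promoters was 52.0% and 6 CpG sites. On either strand, GGGCGG was in 33.0% of all promoters and in 19 of the 37 receptor promoters. The E-box CANNTG was in 66.1% of all promoters, in 19 of the 37 and, of the 5 shown, in Hrh3 alone. TATAAA, in 13% of promoters, was in 2 of the 37 and none of the 5, and TGACGTCA, in 1.60%, was in none of the 37. The 4 motifs were searched separately and a match is a string of letters, not a bound site.

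In hippocampus, dentate granule-like nuclei held less Htr1f and more Htr4 than CA pyramidal-like nuclei. These 2 passed among 4 tested receptors, 1 lower and 1 higher in dentate, where 26.9% of all genes passed (12.7% higher, 14.2% lower). The median was 0.597 over the 4 and 0.004 over all genes tested. Htr1f gave 1 UMI in all dentate granule-like nuclei and 45 in CA pyramidal-like ones, which read 41.1, 34.9, 38.6 and 30 CPM in units 0 to 3. The ratio was 0.0191 (95% exact interval 0.000473 to 0.112, adjusted p = 1.21e-07). Htr4 read 21.8, 53.9, 47.4 and 42.3 CPM in dentate and 14.9, 19.1, 12.9 and 16.4 CPM in CA nuclei, all dentate units above all CA ones (1.26 ± 0.39, adjusted p = 0.0101). That call was kept in 7 of 11 alternatives and ended with DESeq2 and without number 1, 2 or 3, with adjusted p from 0.00601 to 0.182. Chrm1 (134.5 ± 22.4 and 112.6 ± 20.5 CPM) and Chrnb2 (29.6 ± 12.8 and 12.7 ± 2.28 CPM) did not pass, although Chrnb2 did without number 2 (1.33).

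Several receptors too low for that test leaned to one side in their counts. Dentate granule-like and CA pyramidal-like nuclei gave 27 and 6 UMIs of Drd5, 23 and 4 of Drd1a, 2 and 17 of Htr1b, and 2 and 15 of Chrm4. Without the filter on low counts these 4 passed, with log2 fold changes of 1.81, 2.15, -3.05 and -2.97. Hrh3 gave 6 and 7 UMIs, Adra1b 1 and 2, Adra1a 2 and 3 and Chrm2 1 and 5, so that both hippocampal neuron classes stood near the floor of 3 counts for receptors that cortical excitatory nuclei held at means of 12.8 to 81.3 CPM. Htr1a gave 17 and 14 UMIs, or 11.6 and 11.1 CPM.

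Outside neurons, astrocyte-like nuclei of hippocampus held Hrh1 and Adra2a above the level of excitatory nuclei. Hrh1 read 27.6, 42.9, 30.7 and 9.74 CPM in astrocyte-like and 2.63, 2.62, 0 and 0 CPM in excitatory nuclei (log2 fold change 4.10 ± 0.79, adjusted p = 1.66e-05), from 17 and 6 UMIs. Adra2a read 7.87, 21.4, 41.0 and 19.5 CPM against 1.97, 3.93, 6.8 and 0 CPM (2.78 ± 0.80, adjusted p = 0.00362), from 11 UMIs in each class. Units of the 2 classes were apart for both genes. Lower in astrocyte-like nuclei were Chrm1 (26.8 ± 27.0 against 110.1 ± 15.7 CPM, -1.69 ± 0.35, adjusted p = 6.43e-05), Htr4 with 1 UMI (ratio 0.0794, interval 0.00199 to 0.455), Chrnb2 with 2 UMIs (0.145, 0.0173 to 0.538) and Htr1f with 7. These 6 were among 7 tested receptors, where 42.7% of all genes passed (22.1% higher, 20.6% lower). The median was -1.360 over the 7 and -0.028 over all genes tested. Htr1f ended its call without number 0, 1 or 3, Chrnb2 without number 1, and the number of receptors called was 2 without number 0 and 3 without number 1.

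**Figure D5:**
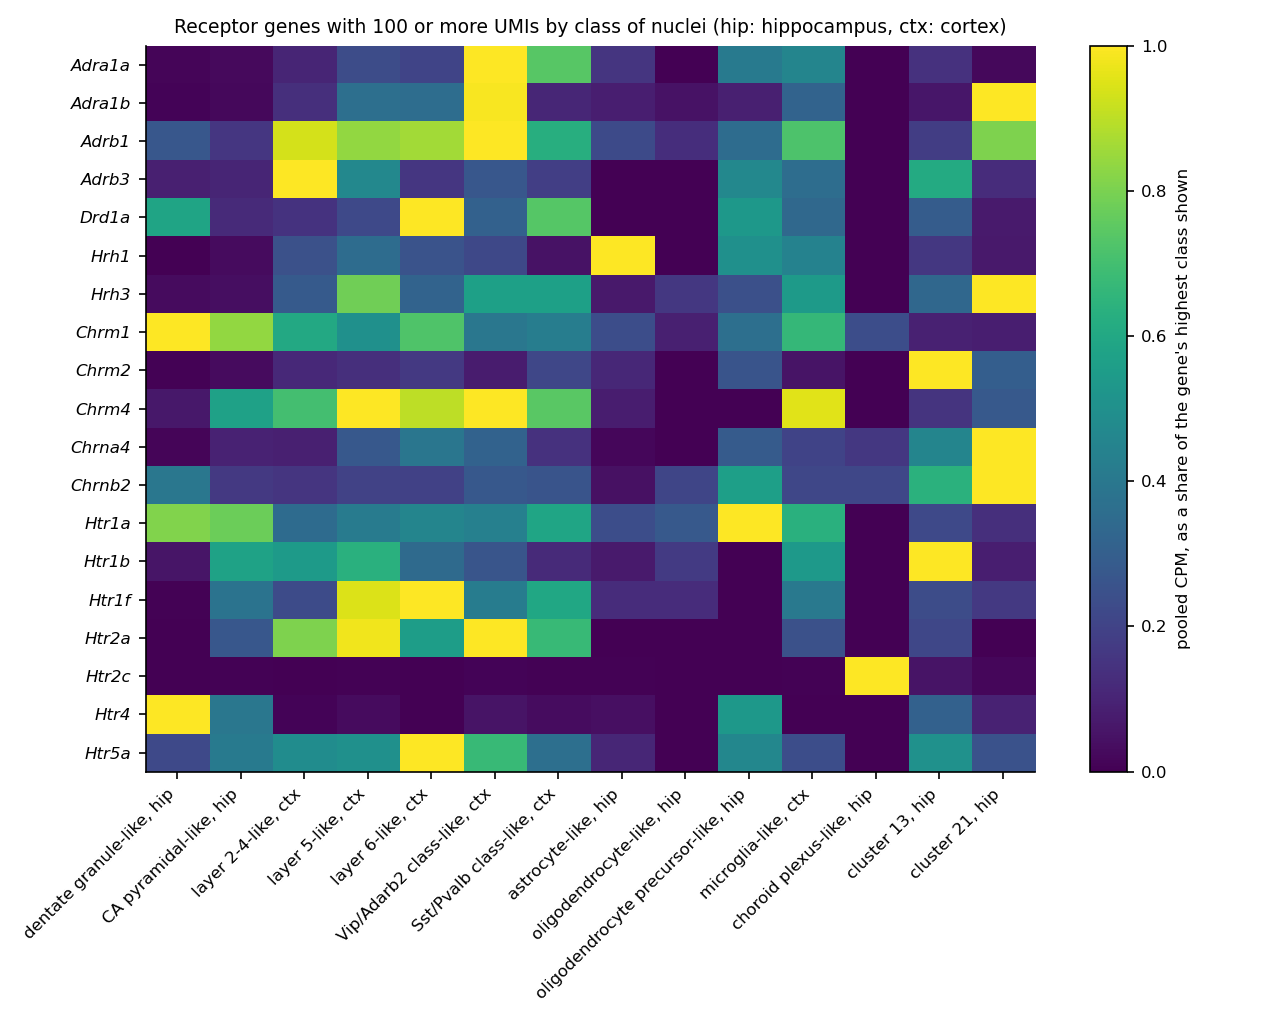
Pooled level of the 19 receptor genes with at least 100 UMIs in 14 classes of nuclei, each gene as a share of its own highest class shown, from 0 (dark) to 1 (yellow). Colours compare classes within a gene and not genes with each other. Hrh1 peaks in astrocyte-like nuclei, Htr2c in choroid plexus-like nuclei, Htr4 and Chrm1 in dentate granule-like nuclei, and Adra1a in Vip/Adarb2 class nuclei.

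Choroid plexus-like nuclei held by far the highest Htr2c level, 1847.3 CPM from 115 UMIs (95% exact interval 1525.1 to 2217.4, counting error only), in 26 nuclei of 1 unit, of which 42.3% were called doublets. Of the other receptors shown by class, only Chrm1 (2 UMIs), Chrna4 (1) and Chrnb2 (1) were counted there. The rest, Hrh3, Adra1a and Adrb1 among them, gave no UMI, which allows 48.2 CPM. Microglia-like nuclei of cortex showed neuronal receptors, Chrm1 at 90.6 CPM, Hrh3 at 79.8 and Adra1a at 39.9. Their cluster also scored 0.418 on the excitatory markers, and the part of other cells' RNA in these values was not tested.

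Clusters 13 and 21 of the hippocampal libraries held several receptors above the pooled level of hippocampal excitatory nuclei. Cluster 13 held Chrm2 at 137.6 CPM (88 UMIs) and Htr2c at 95.4 CPM (61 UMIs), against 8.43 and 9.96 CPM in hippocampal excitatory nuclei. It also held Htr1b at 23.5 CPM (15 UMIs), its highest class shown. Cluster 21 held Hrh3 at 146.0 CPM (75 UMIs), Chrna4 at 99.3 (51), Adra1b at 79.8 (41) and Chrnb2 at 75.9 (39), and gave 25.4% of hippocampal Hrh3, 29.1% of Chrna4 and 35.7% of Adra1b UMIs while holding 5.93% of all hippocampal UMIs. Unit 0 supplied 74.6% of the nuclei of cluster 21.

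Genes that act around the receptors were taken as 3 lists, described here for all nuclei by region. Of 24 genes for transmitter synthesis, transport and breakdown, 8 could be tested and 2 passed, both higher in hippocampus: Slc29a4, a low-affinity monoamine transporter (2.74 ± 0.30, adjusted p = 7.42e-05), and Bche, butyrylcholinesterase (1.14 ± 0.27, adjusted p = 0.00923). Slc29a4 was higher in dentate than in CA nuclei too (3.24 ± 0.37, adjusted p = 5.57e-11), as Htr4 was. Of 56 genes for G proteins and signalling, 53 were tested, 2 were higher and 13 lower, led by the phosphodiesterase genes Pde1a (-1.30 ± 0.12) and Pde4d (-0.90 ± 0.13), the protein kinase A subunit gene Prkar1b (-1.19 ± 0.16) and the phospholipase C gene Plcb1 (-0.69 ± 0.11), with adjusted p of 0.000708 or less. Of 14 nicotinic receptor chaperones, modulators and muscle-type subunits, 9 were tested and 2 were higher, Lypd1 (0.66 ± 0.17, adjusted p = 0.0152) and Tmem35 (0.69 ± 0.21, adjusted p = 0.0370). Of all genes tested over all nuclei, 17.7% passed (9.19% higher, 8.53% lower). Medians were 0.288, -0.176 and 0.182 for the 3 lists and -0.008 for all genes tested.

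Single genes of these lists also differed between cell classes. In cortex, inhibitory nuclei held more Lypd6 (4.02 ± 0.49, adjusted p = 1.27e-10) and Lypd6b (2.30 ± 0.47, adjusted p = 9.34e-05), which bind nicotinic receptors, and more Ache, acetylcholinesterase (1.07 ± 0.19, adjusted p = 3.64e-06), and less Lypd1 (-0.84 ± 0.30, adjusted p = 0.0360). In all, 3 of 9 tested genes of the nicotinic list were higher and 2 lower there, and 1 of 4 of the synthesis list was higher. Of 51 tested genes of the signalling list, 4 were higher and 10 lower. Among all genes tested, 17.6% passed (8.69% higher, 8.91% lower). In hippocampal astrocyte-like nuclei Maob and Maoa, which break down monoamines, were higher than in excitatory nuclei (5.21 ± 0.68, adjusted p = 3.54e-09, and 1.86 ± 0.39, adjusted p = 6.14e-05), as was Hnmt, which breaks down histamine (1.83 ± 0.54, adjusted p = 0.00424). These were 3 of 6 tested genes of the synthesis list, and 1, Slc29a4, was lower. Of 48 tested genes of the signalling list, 12 were higher and 21 lower, and of 8 of the nicotinic list, 2 were higher and 3 lower. Among all genes tested, 42.7% passed (22.1% higher, 20.6% lower).

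By GENCODE vM21 (GRCm38), Hrh3 lies at chr2:180099465-180104488, Htr1f at chr16:64924729-65105854, Adra1a at chr14:66635251-66771168, Chrm2 at chr6:36388084-36528414 and Htr2c at chrX:146962513-147197277. All 49 receptor genes were matched by symbol, and 18 overlap another annotated gene, 5 on the same strand. Htr2c and Chrm2 hold small RNA genes on their own strand, and Hrh3 overlaps a predicted gene on the other. Chrm2 also overlaps 9330158H04Rik on the other strand, as Htr1b does D430036J16Rik and Drd5 does Gm26560, all of them counted genes. The counts of these receptors are uncertain to that extent.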

How the data were processed

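The deposited table holds UMI counts per gene and nucleus, made by the authors with STAR 2.4.0a24 on mm10 and handled with Seurat, per the submitters' processing notes. UMI collapsing, intron counting and strand use are not given in the sources used here. Of its 13313 columns, 1689 match no label and were not used. Nuclei were clustered with scanpy 1.11.5 (2000 variable genes, 40 components, Leiden resolution 2), named from marker lists with thresholds set after seeing the table, and 644 doublet calls (5.54%) were kept and left out in an alternative.

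Counts were summed per unit, with at least 20 nuclei per class and 10 per subtype, and tested by the quasi-likelihood method of edgeR 4.0.16 after TMM scaling and filterByExpr, with p-values adjusted over all genes tested (Benjamini-Hochberg, threshold 0.05). Comparisons within a region had the unit as a block. Intervals are 95% and cover counting error only. On simulated data for all nuclei (12855 genes), 74% of 100 genes given a log2 change of 1 were recovered. These were drawn at random from all genes tested, so the rate does not describe the sparse receptor genes. Alternatives were RLE normalization, DESeq2 1.42.0, no filter, the block, title numbers 1 to 3 alone, each unit left out, no doublet calls, Leiden resolution 3, nuclei with at least 600 UMIs and, chosen after seeing the data, leaving out clusters. Receptor genes with at least 50 UMIs, and those that form a count of 5 or fewer, are named, except 1 that is not reported here. From each of the 3 lists, the text names at most 4 genes that passed, by smallest adjusted p. The members and lists were chosen with earlier results of these data known.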

Additional observations from a re-analysis of the deposited data

Results flagged for a closer look

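Within groups of 4 units, 11 values of receptor genes lay far from the other 3, out of 116 groups tested. A group is expected to give such a value by chance about 1 time in 20. Unit 0 of cortex stood apart with Drd1a over all nuclei (5.67 CPM, others 11.7 to 11.8), with Chrnb2 in excitatory nuclei (18.5 CPM, others 11.9 to 12.8) and with Hrh3 in layer 5 and 6-like nuclei (101.5 CPM, others 71.7 to 75.9). Its layer 5 and 6-like nuclei were 224 layer 5-like and 124 layer 6-like, while layer 6-like ones were the more numerous in cortical units 1 to 3. Unit 0 of hippocampus stood apart with Htr2c over all nuclei (43.8 CPM, others 20.7 to 23.4), and it alone held the choroid plexus-like nuclei. Unit 1 of cortex was high in Htr1f over all nuclei (59.8 CPM, others 46.1 to 47.8) and in layer 2-4-like nuclei (39.6 CPM, others 17.2 to 18.7), and unit 1 of hippocampus in Chrnb2 in excitatory nuclei (30.1 CPM, others 21.3 to 21.8). The remaining 4 rested on 1 to 7 UMIs. They were Htr1f in dentate granule-like nuclei of unit 0 (2.42 CPM), Htr3a in hippocampal excitatory nuclei of unit 2 (2.72 CPM) and Htr4 in astrocyte-like nuclei of unit 2 (10.2 CPM), each with the others at 0, and Htr3a in hippocampal inhibitory nuclei of unit 3 (71.4 CPM, others 14.2 to 23.2).

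The difference between inhibitory and excitatory nuclei was itself unlike in the 2 regions for Hrh3 (1.74 on the log2 scale, adjusted p = 0.000715) and Chrm2 (2.46, adjusted p = 0.00116), by edgeR's quasi-likelihood test of the interaction.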

How the results depend on the processing

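Of 838 values of single genes under alternatives, over 62 pairs of a gene and a comparison, 751 kept their direction and side of the threshold, 65 lost their call, 21 gained one and 1 turned its direction. That was Chrm2 over all nuclei, at -0.072 without clusters 13, 21 and 24. The cause of the following changes in the number of receptors called was not tested unless a filter is named. Leaving out 1 unit or number at a time gave 7 to 13 for excitatory nuclei between regions (11 with all units), 2 to 5 for astrocyte-like against excitatory nuclei (6), 1 to 2 for the interaction (2), 1 to 2 for dentate against CA nuclei (2) and 0 to 2 for the 2 interneuron classes (2). With title numbers 1 to 3 alone, astrocyte-like against excitatory nuclei gave 2 and the interneuron classes 0. With no replicate block, where the filter kept fewer receptors, inhibitory against excitatory nuclei of hippocampus gave 3 (6 with the block), astrocyte-like against excitatory nuclei 3, dentate against CA nuclei 0 and the interneuron classes 0. DESeq2 gave 1 for dentate against CA nuclei and 3 for deep against upper layers (6 with edgeR), no filter on low counts gave 6 for dentate against CA nuclei, and dentate and CA nuclei alone gave 5 for the interaction. Between regions, the title number as a replicate block gave 14 receptors over all nuclei (12 without) and 14 in excitatory nuclei (11 without). The same-number correlations of deviations were 0.428, 0.0968, 0.0167 and 0.0295 for numbers 0 to 3. Hippocampal unit 0 gave -0.241, -0.173 and -0.239 against cortical units 1 to 3. Deviations from a region's mean sum to 0, so given the 0.428 these values had to be negative on the whole and add no support. By the 0.428 alone, the number 0 units were alike across regions. The other numbers showed little of this, and the numbers were not taken to pair the units. The main comparisons between regions thus leave the likeness of the number 0 units out of the model. Sparse counts limit these results: over all nuclei 29 of the 49 genes were under the filter on low counts when all units were used.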

Other observations

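Htr5b, a serotonin receptor gene that is lost in humans, was singled out after its values were seen. Hippocampal nuclei gave 30 of its UMIs and cortical nuclei 3, so the pooled levels had a ratio of 13.3 (95% exact interval 4.15 to 68.3, counting error only), and stayed under the filter on low counts. Without that filter its log2 fold change over all nuclei was 3.66 by edgeR (adjusted p = 0.000694). That test used the same counts that led to the choice, so it adds no support. Hippocampal CA pyramidal-like nuclei gave 16 of the UMIs, 10 of them in unit 3, and only 12 cortical nuclei were of that class.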
